A study of Homo sapiens with 6 samples.

Results

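The cytochrome P450 genes of the array, together with AHR, AHRR, ARNT, TIPARP and POR, were examined in a luminal and a luminobasal breast cancer line. Members were chosen by gene name, and the choice was made with earlier results of these data known. The rule took every probe whose gene symbol has the form of a P450 gene (CYP, a family number, a subfamily letter and a member number) or is one of the 5 other names. This gave 59 of the 25940 gene names on the array, with 81 of its 34127 probes, of which 54 were P450 genes with 73 probes. RNA was taken from 3 sorts of each line, pLUM and pLB, and each RNA was put on an Agilent array of its own. Both lines descend from T47D, an established human breast cancer cell line that expresses estrogen and progesterone receptors. Both were grown from xenograft tumours of its subline T47Dco and sorted for claudin 3 (CLD3) and integrin alpha 6 (CD49f). pLUM came from a tumour grown with estradiol (E), was CLD3+CD49f-, was kept in 1 nM E and received 1 nM E for 72 h before collection. pLB came from a tumour grown with E plus progesterone, was CLD3-CD49f+, and was kept without estrogen (estrogen withdrawal, EWD). Each line came from a single tumour, so that line, tumour treatment and hormone at collection cannot be told apart. At collection the cells were stained for cytokeratin 5 (CK5) and sorted, but which of the CK5 fractions was put on the arrays is not stated. Nothing in the labels says that the sorts came from separate cultures, and p-values therefore measure only the spread between these sorts, which may be technical.

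P450 enzymes are heme proteins that insert an oxygen atom into their substrates. Most sit in the endoplasmic reticulum and receive electrons from POR (cytochrome P450 oxidoreductase), while the mitochondrial ones use ferredoxin. Some P450 enzymes clear drugs and carcinogens, and others make or break down steroid hormones, vitamin D, retinoids, bile acids and fatty acid mediators. AHR is a transcription factor of the cytosol that, once bound by a ligand such as dioxin or a tryptophan metabolite, joins ARNT in the nucleus and induces CYP1A1, CYP1A2, CYP1B1, AHRR and TIPARP, the last pair being repressors of AHR. In breast tissue CYP1B1 hydroxylates estradiol and CYP19A1 (aromatase) makes it.

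Signals are given as log2 of the spot intensity relative to the 75th percentile of the array. A value of 0 is thus the brightness that 75 percent of probes do not exceed, and values of different probes are not levels that can be compared with one another. A probe was called higher or lower in pLB when it differed by at least 2-fold with a Benjamini-Hochberg adjusted p under 0.05 in limma over the 23099 probes tested, those with 3 or more of the 6 arrays well above background. Where no array of a line was well above background, only a bound on the fold is given, which sets the bright line against a floor on each array of the dim line, namely the dimmest signal there that was well above background, or the probe itself where that was brighter. An adjusted p printed beside such a bound is from the main fit, on signals without the floor, and does not test the bound. As bulk samples, the arrays do not separate fewer cells of a type from less RNA per cell.

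Probes of 60 bases carried each measurement, and the start of 5 of them is shown because AHR, CYP2B6 and CYP4Z1 had the largest fitted differences of the probes called higher and detected in both lines (AHR) and of those called lower (CYP2B6 and CYP4Z1). The first 30 bases of each are given in lower case, and no base is marked. The positions are those of the files, in hg19, all on the plus strand. The AHR probes lay at chr7:17384999-17385058 (A_23_P215566) and chr7:17382763-17382822 (A_33_P3316800). One CYP2B6 probe lay at chr19:41524193-41524252 (A_24_P339514), and those of CYP4Z1 lay at chr1:47583883-47583942 (A_23_P103971) and chr1:47583537-47583596 (A_33_P3279880).
AHR A_23_P215566: aatggcttcggacaaaatatctctgagttc
AHR A_33_P3316800: ctgttggacgtcagcaagttcacatggagg
CYP2B6 A_24_P339514: ggttccctgagctgtgggattctgcactgg
CYP4Z1 A_23_P103971: agtttgatcaaaactccactcagtatctgc
CYP4Z1 A_33_P3279880: ccagcctgttcgtcaaatgctcctcaagtc

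The markers that define the labels differed in the direction the labels give. All 11 probes of 6 luminal genes (ESR1, PGR, GATA3, FOXA1, CLDN3 and MUC1) were called lower in pLB, and all 9 probes of 6 basal genes (KRT5, ITGA6, EGFR, TP63, CDH3 and SNAI2) were called higher. CLDN3 and ITGA6 encode the sorted proteins, so their difference was selected. Of 12 probes for leukocyte, endothelial and stromal genes, 8 were well above background on no array of either line, among them all probes of PECAM1, COL3A1 and PDGFRB. The other 4 were detected on all 6 arrays: CD68 was called higher in pLB (1.52 ± 0.19, adjusted p = 0.000391 in limma), a PTPRC probe was called lower (-1.20 ± 0.25, adjusted p = 0.00453), and another PTPRC probe and COL1A1 were not called. Their part in the results for the members was not tested. The summed level of these 12 probes was 1.09 to 1.19 in pLUM and 0.668 to 1.29 in pLB on the linear scale relative to the 75th percentile. Pearson's r across tested probes was 0.984 to 0.991 between pLUM arrays, 0.972 to 0.989 between pLB arrays and 0.780 to 0.806 between lines. The pLUM arrays shared slide 1 with pLB replicate 1, and pLB replicates 2 and 3 were on slide 2.

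Of the 81 probes, 43 (32 genes) were tested and 38 were not. The untested probes ranged from -8.00 to -4.11, and 29 of them were well above background on no array. Among the 43 tested probes, 16 probes of 12 genes were called higher in pLB (37.2%, against 21.9% of all tested probes) and 10 probes of 8 genes were called lower (23.3%, against 23.7%). The other 17 were not called. The median log2 fold change of the 43 tested members was 0.41, against -0.01 over all tested probes. A probe that was well above background in only one line could pass the filter only by differing: 7 tested probes were of that kind in pLB and 5 in pLUM. Among the 26 that were well above background on all 6 arrays, 10 were called higher (38.5%, against 19.8% of all such probes) and 4 lower (15.4%, against 20.6%). The arrays of the lines did not overlap for 21 probes that were higher in pLB, a pattern held by 34.3% of all tested probes, and for 11 that were lower, a pattern held by 33.8%. On the adjusted p alone, without a fold threshold, 20 probes were higher (31.1% of all tested probes were) and 11 lower (31.6%). Normexp background correction, which adds an offset of 50 to each signal, left 5 probes called higher. It also moved the median of all tested probes to -0.26, and the share of all probes called under it is not given here.

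**Figure D1:**
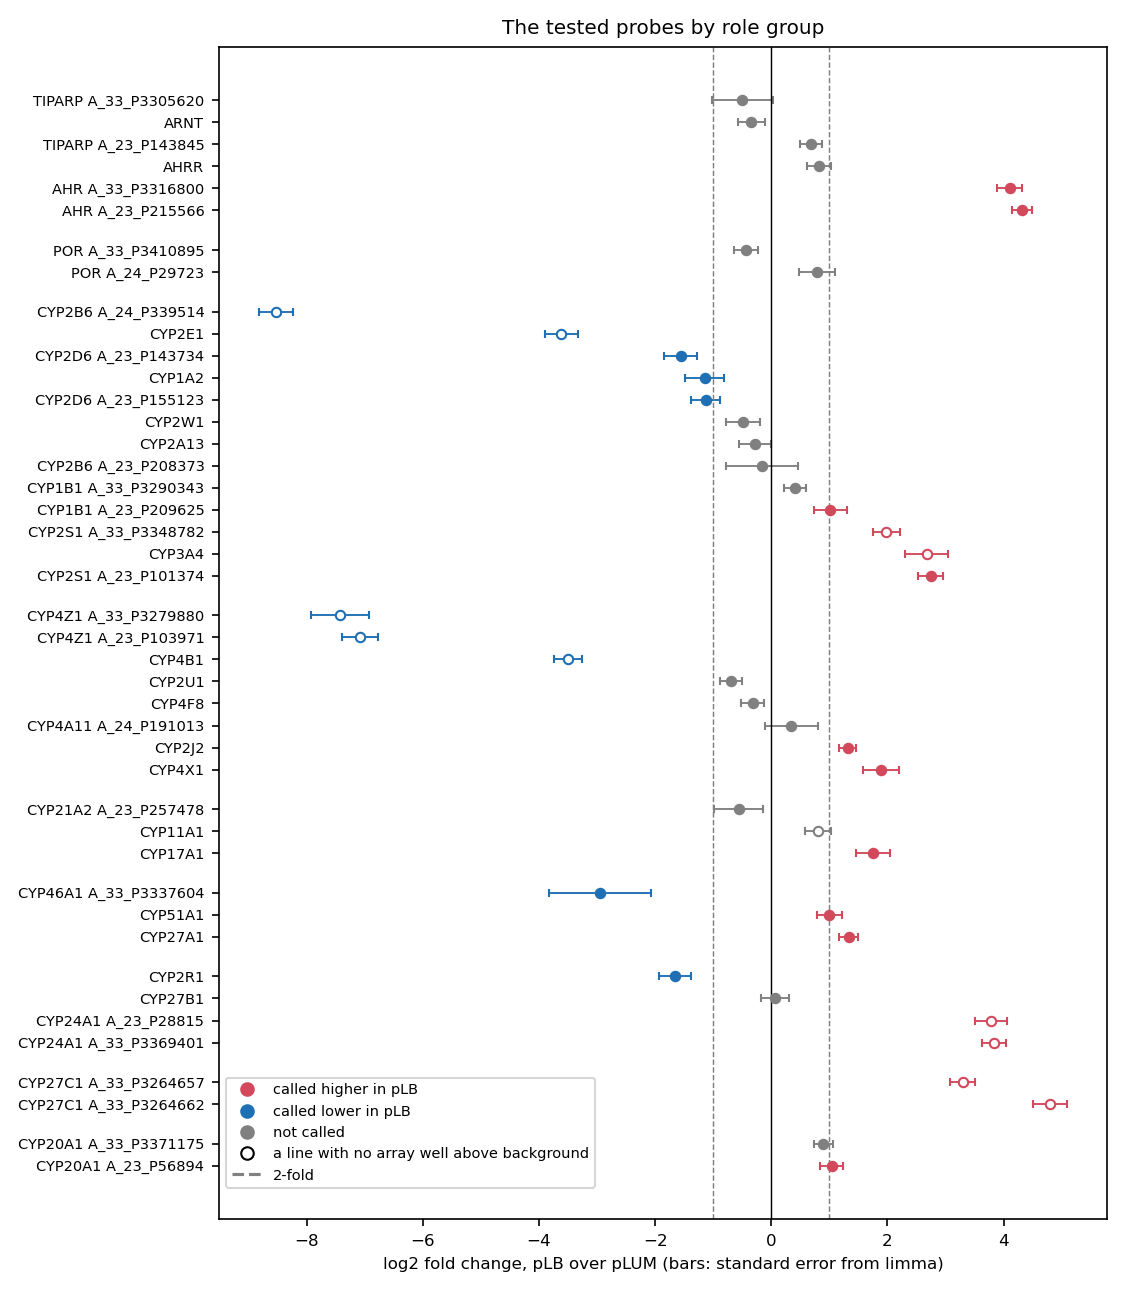
Log2 fold change of pLB over pLUM for the 43 tested probes, with its standard error, grouped from top to bottom as AHR pathway, POR, xenobiotic, fatty acid and eicosanoid, steroid hormone synthesis, sterol and bile acid, vitamin D, retinoid and CYP20A1. Open symbols mark probes that were well above background on no array of 1 line, and the called probes lie on both sides of 0 in the xenobiotic, fatty acid, sterol and vitamin D groups.

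AHR was higher in pLB by 19.9-fold and 17.2-fold on its probes. The first probe, A_23_P215566, read -1.91, -1.62 and -1.83 in pLUM and 2.58, 2.69 and 2.33 in pLB. The second, A_33_P3316800, read -1.50, -1.49 and -2.04 in pLUM and 2.29, 2.30 and 2.70 in pLB. Every pLB array was thus brighter than the 75th percentile and every pLUM array dimmer, on both probes. The log2 fold changes were 4.32 ± 0.18 (SE, adjusted p = 2.01e-06 in limma) and 4.10 ± 0.22 (adjusted p = 6.74e-06). Both calls held under all 20 alternative settings, with the lowest value, 3.61, for A_33_P3316800 under normexp.

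The partner and the repressors of AHR were not called. ARNT, the partner, read -2.37, -2.38 and -2.53 in pLUM and -2.96, -3.06 and -2.30 in pLB, a log2 fold change of -0.35 ± 0.23 (adjusted p = 0.226), and the lines overlapped. AHRR, which competes with AHR for ARNT, read -3.39, -3.26 and -2.98 in pLUM and -2.67, -2.37 and -2.12 in pLB. The AHRR arrays did not overlap, but the difference of 0.82 ± 0.21 (adjusted p = 0.0105) was under 2-fold, and it passed 2-fold, at 1.08, when the arrays were scaled on spike-in controls. TIPARP, an ADP-ribosyltransferase that modifies AHR, read 1.40, 1.36 and 1.17 in pLUM and 2.27, 1.85 and 1.85 in pLB on probe A_23_P143845. That difference of 0.68 ± 0.19 (adjusted p = 0.0148) was also under 2-fold with no overlap. The other TIPARP probe, A_33_P3305620, was well above background on 2 pLUM arrays and 1 pLB array and differed by -0.50 ± 0.53. With slide as a block, a fit that rests on pLB replicate 1 against pLUM, it was called lower, but pLB replicate 1 was not well above background.

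The CYP1 enzymes, the classical targets of AHR, did not share a direction. CYP1A1, the main dioxin-induced enzyme, was well above background on no array. Its probe read -5.40, -5.97 and -5.25 in pLUM and -7.52, -6.02 and -6.27 in pLB, so no fold is given. CYP1A2, a drug- and caffeine-metabolizing enzyme of the liver, read -2.88, -2.67 and -3.03 in pLUM and -4.72, -3.96 and -3.34 in pLB. It was called 2.21-fold lower in pLB (log2 fold change -1.15 ± 0.34, adjusted p = 0.0207), with pLB replicate 3 nearest to the pLUM arrays. The call was lost without pLUM replicate 1 (-1.16), pLUM replicate 2 (-1.05), pLB replicate 1 (-0.79) or pLB replicate 2 (-1.17), and also with normexp (-0.84) or spike-in scaling (-0.89).

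CYP1B1, the estradiol 4-hydroxylase, was called on 1 of its 2 probes. Probe A_23_P209625 read 1.94, 1.76 and 1.14 in pLUM and 2.28, 2.53 and 3.08 in pLB, without overlap. The difference was 1.02 ± 0.29, or 2.03-fold (adjusted p = 0.0177). Probe A_33_P3290343 differed by 0.41 ± 0.18 (adjusted p = 0.0905). The first call was lost without pLUM replicate 3 (0.78) or pLB replicate 3 (0.79), with quantile normalization (0.92), with slide as a block (0.67) and with the replicate number as a block.

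**Figure D2:**
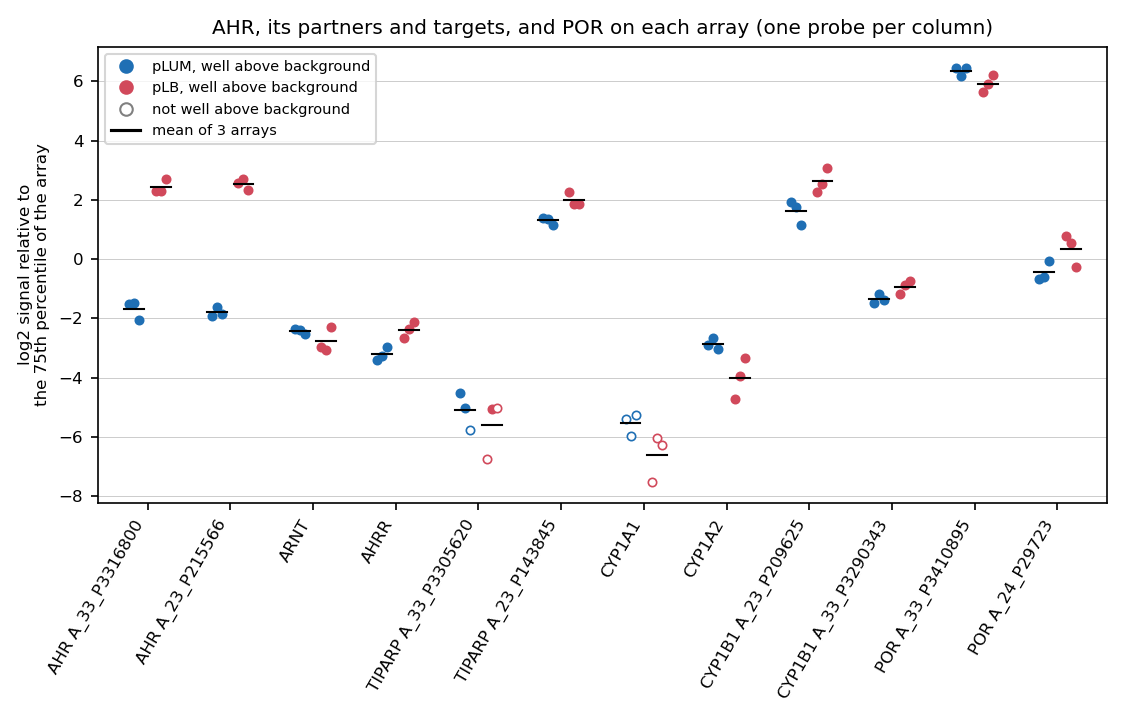
Signal on each array, as log2 relative to the 75th percentile of the array, for each probe of AHR, ARNT, AHRR, TIPARP, CYP1A1, CYP1A2, CYP1B1 and POR, with filled points well above background and lines at the mean of 3 arrays. Both AHR probes sit near -2 in pLUM and above 2 in pLB, whereas CYP1A1 has open points only.

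POR, which feeds electrons to the microsomal P450 enzymes, was not called on either probe, and its probes had opposite signs. A_33_P3410895 read 6.45, 6.17 and 6.46 in pLUM and 5.63, 5.92 and 6.22 in pLB, a difference of -0.43 ± 0.20 (adjusted p = 0.0999). A_24_P29723 read -0.66, -0.60 and -0.06 in pLUM and 0.77, 0.54 and -0.25 in pLB, a difference of 0.79 ± 0.31 (adjusted p = 0.0568). The lines overlapped on both. The second probe was called higher without pLB replicate 3 (1.10) and with slide as a block (1.21).

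Genes that serve P450 enzymes with electrons and heme held calls of both directions, at shares near those of all tested probes (21.9% higher and 23.7% lower). All 27 probes of the 21 genes listed were tested, 5 were called higher and 5 lower, and their median log2 fold change was 0.24. CYB5R3, which reduces cytochrome b5, was higher on both probes (1.68 ± 0.16 and 1.81 ± 0.21). ALAS1, the first enzyme of heme synthesis in most cells, was higher by 1.20 ± 0.27. PGRMC1, a heme-binding partner of P450 enzymes, was higher by 1.31 ± 0.23, and HMOX2, which degrades heme, by 1.30 ± 0.20. The later heme enzymes PPOX (-2.33 ± 0.16), ALAD (-1.99 ± 0.24) and FECH (-1.29 ± 0.21 on the probe detected in both lines) were lower, as was the mitochondrial cytochrome b5 gene CYB5B (-1.92 ± 0.23).

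Among the xenobiotic enzymes, 13 of 25 probes were tested, and 4 were called higher and 5 lower, against 21.9% and 23.7% of all tested probes. The largest difference was in CYP2B6, which metabolizes bupropion and efavirenz in the liver. Probe A_24_P339514 read 2.59, 2.24 and 1.96 in pLUM and -6.24, -5.76 and -6.77 in pLB, where no array was well above background. It was therefore at least 188-fold lower in pLB (adjusted p = 1.04e-06). The other CYP2B6 probe, A_23_P208373, was well above background on all 6 arrays and read -3.05, -2.32 and -4.77 in pLUM and -3.71, -4.08 and -2.84 in pLB. Here the lines overlapped and the difference was -0.16 ± 0.62 (adjusted p = 0.831), and was -0.86 without pLUM replicate 3 and 0.36 without pLUM replicate 2. The files list A_24_P339514 for the pseudogene CYP2B7P too, so its signal may be from either.

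CYP2D6, which metabolizes codeine and tamoxifen, was lower on both probes. A_23_P143734 read -3.22, -3.00 and -2.39 in pLUM and -4.84, -4.27 and -4.18 in pLB, or 2.95-fold lower (adjusted p = 0.00225). A_23_P155123, which the files also list for CYP2D7, read -1.10, -1.21 and -0.59 in pLUM and -2.39, -2.14 and -1.75 in pLB, or 2.19-fold lower (adjusted p = 0.00549). No pLB array reached the pLUM arrays on either probe. The second call was lost without pLUM replicate 3 (-0.94), without pLB replicate 1 (-0.98), with normexp (-0.98) and with spike-in scaling (-0.88). CYP2E1, the ethanol-oxidizing enzyme, read -4.04, -3.93 and -3.39 in pLUM and -7.57, -7.75 and -6.89 in pLB. It was at least 2.84-fold lower (adjusted p = 3.73e-05).

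CYP2S1 and CYP3A4 were higher in pLB. CYP2S1, an enzyme of epithelia that is induced through AHR, read -4.25, -4.22 and -4.01 in pLUM and -1.12, -1.34 and -1.80 in pLB on A_23_P101374, a probe spotted 10 times on each array. This was a 6.69-fold difference (2.74 ± 0.22, adjusted p = 3.63e-05) with a wide gap between the lines. On its other probe, A_33_P3348782, no pLUM array was well above background and the signal was at least 3.02-fold higher in pLB (adjusted p = 0.000242). CYP3A4, the main drug-metabolizing enzyme of the liver, read -6.09, -7.38 and -6.94 in pLUM, with no array well above background, and -3.97, -4.61 and -3.81 in pLB. It was at least 2.39-fold higher (adjusted p = 0.000558). Under normexp CYP3A4 was not called, and its log2 fold change fell below 0 (-0.12), though above the median of all tested probes (-0.26). That setting also ended the call of the second CYP2S1 probe (0.01).

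CYP2W1 and CYP2A13 were not called. CYP2W1, an enzyme of fetal and tumour tissue, read 8.94, 8.59 and 9.17 in pLUM and 7.99, 8.26 and 9.01 in pLB, a difference of -0.49 ± 0.30 (adjusted p = 0.191) with overlap. Of all member probes only this one aligned over at least 30 bases with probes that the files assign to other genes, and it did so with 5 of them. The 5 other probes were well above background on all 6 arrays and differed by -1.18 to -0.56 between the lines. Whether they take up the same RNA was not tested. CYP2A13, a nicotine-metabolizing enzyme of the airways, read between -5.27 and -4.43 and differed by -0.28 ± 0.28 (adjusted p = 0.411).

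The fatty acid and eicosanoid enzymes, with 8 of 18 probes tested, held 3 calls lower and 2 higher, against 23.7% and 21.9% of all tested probes. CYP4Z1, a fatty acid hydroxylase of the mammary gland, was lower in pLB on both probes. A_33_P3279880 read 1.56, 0.98 and 0.56 in pLUM and -7.21, -6.68 and -5.29 in pLB, at least 80.2-fold lower (adjusted p = 1.83e-05). A_23_P103971 read 0.46, -0.12 and -0.60 in pLUM and -7.49, -7.19 and -6.80 in pLB, at least 36.9-fold lower (adjusted p = 2.68e-06). No pLB array was well above background on either. CYP4B1, an enzyme of lung and bladder, read -3.53, -3.30 and -3.40 in pLUM and -7.06, -7.25 and -6.42 in pLB, at least 3.69-fold lower (adjusted p = 2.03e-05). All 3 of these calls held under every alternative that tested them.

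CYP2J2 and CYP4X1 were higher. CYP2J2, which makes epoxides of arachidonic acid, read -0.22, -0.42 and -0.40 in pLUM and 1.01, 1.00 and 0.90 in pLB. The difference was 2.49-fold (1.31 ± 0.15, adjusted p = 0.000256), far beyond the spread within either line. CYP4X1 read -4.27, -3.53 and -4.61 in pLUM and -1.97, -2.17 and -2.60 in pLB, a 3.70-fold difference (adjusted p = 0.00144) that normexp reduced to 0.61 on the log2 scale, without a call. CYP2U1, a hydroxylase of long-chain fatty acids, was not called at -0.69 ± 0.18 (adjusted p = 0.013), nor was CYP4F8 at -0.32 ± 0.20 (adjusted p = 0.193). The tested CYP4A11 probe, listed also for CYP4A22, was well above background on 3 arrays and differed by 0.34 ± 0.45.

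**Figure D3:**
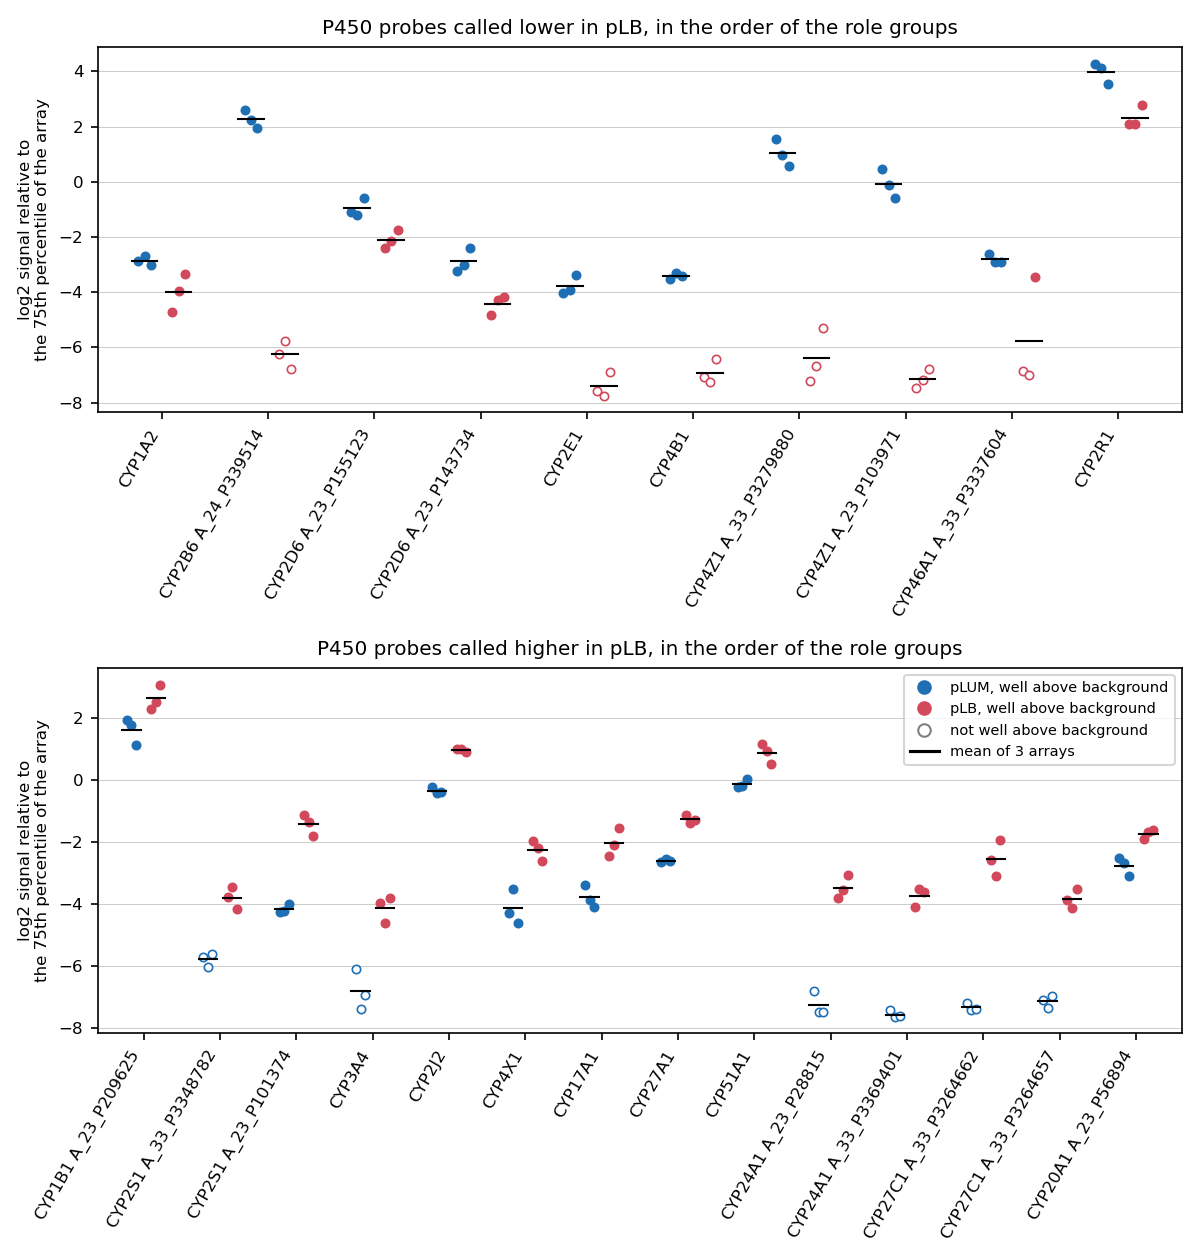
Signal on each array, as log2 relative to the 75th percentile, for the 10 P450 probes called lower in pLB (top) and the 14 called higher (bottom), with open points not well above background and lines at the mean of 3 arrays. CYP2B6 A_24_P339514 and the CYP4Z1 probes have open pLB points more than 6 log2 units below the pLUM mean, and in CYP46A1 pLB replicate 3 lies apart from the other pLB arrays.

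Neighbouring P450 genes differed in direction. On chromosome 1 the probes ran, in order of their hg19 positions from 47284756 to 47606576, through CYP4B1, CYP4A11, CYP4X1, CYP4Z1 and CYP4A22. CYP4B1 and CYP4Z1 were lower in pLB, CYP4X1 between them was higher, and the CYP4A11 and CYP4A22 probes were not called or not tested. On chromosome 19, from 41383096 to 41713141, CYP2B6 was lower on 1 probe and CYP2S1, at the far end, was higher on both. CYP2A13 between them was not called, and CYP2A7 and CYP2F1 were well above background on no array.

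**Figure D4:**
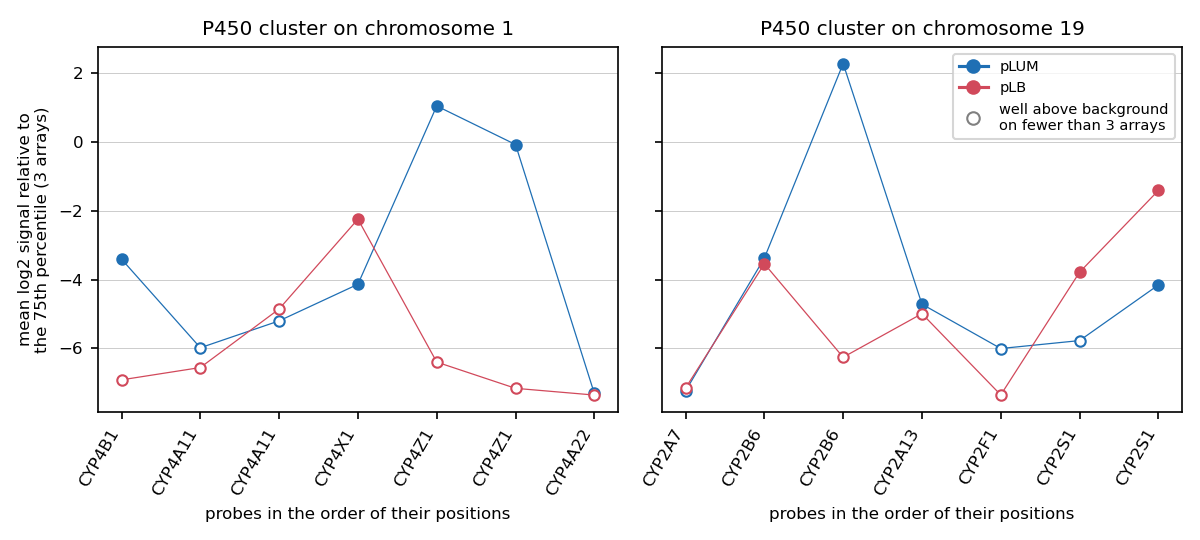
Mean log2 signal of 3 arrays of each line for the P450 probes of the clusters on chromosomes 1 and 19, in the order of their positions and not to scale, with open points where fewer than 3 arrays were well above background. The pLUM mean lies above that of pLB at CYP4B1, CYP4Z1 and 1 CYP2B6 probe and below it at CYP4X1 and CYP2S1. The lines that join points only mark the order, since levels of different probes cannot be compared.

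Of the enzymes of steroid hormone synthesis, 3 of 10 probes were tested. CYP17A1, the 17-hydroxylase and lyase on the way to androgens, read -3.37, -3.88 and -4.09 in pLUM and -2.44, -2.10 and -1.54 in pLB. It was 3.38-fold higher in pLB (1.76 ± 0.29, adjusted p = 0.00143) without overlap, and was not called under normexp (0.60). CYP19A1, the aromatase, had 4 probes that read between -7.90 and -6.41, and none of them was well above background on any array of either line. CYP11A1, which makes pregnenolone from cholesterol, was well above background on the pLB arrays only and was at least 1.52-fold higher there. Its difference without the floor (adjusted p = 0.0152 in limma) was under 2-fold and not called. In limma with the floor and no filter, the adjusted p was 0.0762. The tested CYP21A2 probe, listed also for the pseudogene CYP21A1P, differed by -0.56 ± 0.42. It was called lower with slide as a block, which rests on pLB replicate 1, an array on which it was not well above background. CYP11B1 and CYP11B2, the cortisol and aldosterone enzymes of the adrenal gland, were not tested.

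In the sterol and bile acid group, only 3 of 8 probes were tested. Of these, 2 were called higher and 1 lower, against 21.9% and 23.7% of all tested probes. CYP27A1, which makes 27-hydroxycholesterol, a ligand of the estrogen receptor, read -2.64, -2.55 and -2.60 in pLUM and -1.13, -1.40 and -1.27 in pLB. The 2.51-fold difference (1.33 ± 0.16, adjusted p = 0.000262) was well beyond the spread, but not called under normexp (0.72). CYP51A1, the lanosterol demethylase of cholesterol synthesis, read -0.24, -0.18 and 0.04 in pLUM and 1.15, 0.95 and 0.52 in pLB. Its difference of 1.00 ± 0.21 (adjusted p = 0.00447) lay at the 2-fold threshold. It fell below that without pLUM replicate 1 (0.95) or 2 (0.97), without pLB replicate 1 (0.86) or 2 (0.96), and with normexp (0.91), quantile normalization (0.99) or median scaling (0.98).

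CYP46A1, the cholesterol 24-hydroxylase of neurons, was lower in pLB on 1 probe and rested on few arrays. A_33_P3337604 read -2.61, -2.90 and -2.92 in pLUM and -6.85, -6.98 and -3.44 in pLB, so that pLB replicate 3 was close to pLUM and the only pLB array well above background. The difference was -2.95 ± 0.88 (adjusted p = 0.0215). Without pLB replicate 3 no pLB array was well above background, and the probe was at least 6.73-fold lower. The call was lost without pLUM replicate 1 (-2.85), pLUM replicate 3 (-3.00), pLB replicate 1 (-2.40) or pLB replicate 2 (-2.34). The called probe is listed for no RefSeq transcript, whereas the other CYP46A1 probe, A_23_P48784, is listed for one. That other probe read -6.63, -5.42 and -5.65 in pLUM and -7.68, -7.00 and -7.04 in pLB. It could not be detected in either line, so the call is not known to hold for that transcript. It was not tested, nor were the probes of CYP7A1, CYP7B1, CYP8B1 and CYP39A1.

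The vitamin D enzymes were called in both directions. CYP2R1, the 25-hydroxylase that activates vitamin D in its first step, read 4.28, 4.11 and 3.53 in pLUM and 2.10, 2.09 and 2.77 in pLB. It was 3.16-fold lower in pLB (-1.66 ± 0.28, adjusted p = 0.00154), and no pLB array reached the pLUM range. CYP27B1, the second activating enzyme, read between -2.18 and -1.51 on all 6 arrays and differed by 0.06 ± 0.24 (adjusted p = 0.825). CYP24A1, which degrades vitamin D and is a target of the vitamin D receptor, was well above background on no pLUM array and on every pLB array with both probes. A_23_P28815 read -6.80, -7.49 and -7.48 in pLUM and -3.80, -3.54 and -3.06 in pLB, at least 3.77-fold higher (adjusted p = 2.59e-05), and A_33_P3369401 was at least 3.15-fold higher (adjusted p = 6.28e-06). Under normexp neither was called (0.23 and 0.26).

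Of the retinoid enzymes, only CYP27C1 was tested. CYP27C1, a retinoid desaturase of skin, was well above background on no pLUM array. A_33_P3264662 read -7.17, -7.41 and -7.39 in pLUM and -2.56, -3.09 and -1.93 in pLB, at least 7.23-fold higher (adjusted p = 1.15e-05). A_33_P3264657 read -7.09, -7.35 and -6.95 in pLUM and -3.86, -4.14 and -3.50 in pLB, at least 2.92-fold higher (adjusted p = 1.66e-05). The lines were far apart on both, and normexp ended both calls (0.80 and 0.07). CYP26A1, CYP26B1 and CYP26C1, which break down retinoic acid, read between -7.93 and -4.74 and were well above background on at most 1 array.

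CYP20A1, whose substrate is not known, was called higher on 1 of its 2 probes. A_23_P56894 differed by 1.04 ± 0.20 (adjusted p = 0.00307) and A_33_P3371175 by 0.90 ± 0.16 (adjusted p = 0.00206). The lines overlapped on neither probe. The call was lost without pLUM replicate 3 (0.88) or pLB replicate 3 (0.99), with normexp (0.48) and with slide as a block (0.88), and the second probe was called with spike-in scaling (1.15). Across members, 11 genes had more than 1 tested probe, 3 of these (CYP1B1, CYP2B6 and CYP20A1) had probes with different calls, and none had probes called in opposite directions.

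The genes without a tested probe were 27 in all, among them CYP1A1, CYP2A7, CYP2C8, CYP2C18, CYP2C19, CYP2F1, CYP3A5, CYP3A7, CYP3A43, CYP4A22, CYP4F2, CYP4F3, CYP4F11, CYP4F12, CYP4F22, CYP4V2, CYP7A1, CYP7B1, CYP8B1, CYP11B1, CYP11B2, CYP19A1, CYP26A1, CYP26B1, CYP26C1 and CYP39A1. The probe of CYP7B1, an oxysterol hydroxylase, was well above background on 2 pLB arrays. A CYP3A5 probe was well above background on 2 pLUM arrays. A signal near background shows that a transcript was not detectable with these probes, not that it was absent.

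AHR with ARNT binds the letters GCGTG, and stretches of 3 promoters are shown because they hold these letters in genes that AHR is known to induce. Of the other genes named here as induced through AHR, CYP1A2 and CYP2S1 had no match in this window and CYP1B1 had no promoter in the table. Promoters are those of RefSeq in GRCh38.p14, from 250 bases before to 50 after each gene's start, and only bases before the start are printed, in the direction of the gene. Capitals mark GCGTG or its reverse complement CACGC, or in AHRR the longer TNGCGTG. The stretches lie at chr15:74725531-74725630 (CYP1A1, minus strand), chr5:321614-321713 (AHRR, plus strand) and chr3:156674403-156674502 (TIPARP, plus strand).
CYP1A1 promoter: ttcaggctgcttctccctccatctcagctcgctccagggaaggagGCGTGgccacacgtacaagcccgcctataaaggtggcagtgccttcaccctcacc
AHRR promoter: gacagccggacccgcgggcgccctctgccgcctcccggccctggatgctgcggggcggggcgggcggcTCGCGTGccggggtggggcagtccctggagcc
TIPARP promoter: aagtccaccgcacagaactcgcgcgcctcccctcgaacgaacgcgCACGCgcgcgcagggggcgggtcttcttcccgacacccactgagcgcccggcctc
On either strand, GCGTG was found in 36.5% of all 35116 promoters and TNGCGTG, which contains it, in 5.51%. By gene the shares were 40.6% and 6.69% of 27305 genes. Of 42 member genes with a promoter in the table, 16 held GCGTG (38.1%) and 2 held TNGCGTG, AHRR and CYP20A1. GCGTG was found in 6 of 10 genes called higher (AHR, CYP2J2, CYP4X1, CYP20A1, CYP27C1 and CYP51A1) and in 0 of 6 called lower. The other called genes, CYP1B1 and CYP24A1 (higher) and CYP2D6 and CYP46A1 (lower), had no promoter in the table. These are matches of letters in a short window and no measure of binding.

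Other genes around AHR, listed with earlier results of these data known, included several that were higher in pLB. Of 19 genes that act in the pathway or are known targets apart from P450 genes, 24 probes of 16 genes were tested, 15 were called higher and 2 lower, and the median log2 fold change was 1.15. Of all tested probes, 21.9% were called higher and 23.7% lower. No pLUM array was well above background for 6 of the 15, which could pass the filter only by being brighter in pLB. Among the 15 probes of the list that were well above background on all 6 arrays, 9 were called higher and 0 lower, against 19.8% and 20.6% of all such probes. EREG, an EGFR ligand, read -7.44, -7.72 and -7.71 in pLUM and -0.42, -0.44 and -0.61 in pLB, at least 29.7-fold higher. UGT1A6, a glucuronosyltransferase, was at least 23.2-fold and 10.1-fold higher on its probes, and the UGT1A genes share exons, so that which of them was measured is uncertain. The scaffold gene NEDD9 was at least 4.01-fold and 2.06-fold higher and the cytokine gene IL1B at least 2.78-fold higher. HSP90AB1, a chaperone that holds AHR in the cytosol, was higher on both probes (1.32 ± 0.25 and 1.54 ± 0.23). In the other direction, VAV3 (-0.99 ± 0.18) and ARNTL (-0.81 ± 0.16 on the probe detected in both lines) were lower by under 2-fold and not called. The other ARNTL probe was at least 1.43-fold lower and not called. SERPINB2 and NFE2L2 were well above background on no array.

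The enzymes of tryptophan breakdown, which yields AHR ligands, were split. TDO2 was at least 1.92-fold lower in pLB. KMO was lower on 1 probe (-2.08 ± 0.20) and not called on the other (-0.39 ± 0.30). KYNU was higher on 1 probe (1.74 ± 0.17) and, on the other, differed by -0.92 ± 0.28 without a call. IDO1 was well above background on no array. NQO1, a quinone reductase and a classical AHR target, was not called at 0.50 ± 0.28 (adjusted p = 0.151). Other genes with a probe called higher included ARNT2, HSP90AA1, PTGES3 and ALDH3A1. HSP90AA1 probe A_33_P3665777 was not called at 0.41 ± 0.17 (adjusted p = 0.0685 in limma), and the other probes of ARNT2 and ALDH3A1 were not tested.

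Of 24 receptors and factors that control P450 genes, 24 probes of 17 genes were tested, 5 were called higher (21.9% of all tested probes were) and 8 lower (23.7%), with a median of 0.12. PPARG was at least 3.28-fold and 6.03-fold higher in pLB on its probes, RARG, a retinoic acid receptor, was higher by 2.21 ± 0.22, and CEBPB by 1.39 ± 0.15. VDR, the vitamin D receptor, was higher too. ESR1 and FOXA1, all of whose probes were called lower, are also markers of the pLUM label, so the count of lower calls is not independent of that label. ESR1 was lower on 3 probes, by at least 38.7-fold on the probe with the largest difference. NR1I3 (CAR), the receptor that induces CYP2B6 in the liver, was lower by -1.97 ± 0.23, and FOXA1 (-2.27 ± 0.22 on the probe detected in both lines), CEBPA (-1.37 ± 0.28) and NR1H3 (-1.31 ± 0.17) were also lower. NR1I2 (PXR) and HNF4A had no tested probe. Over these 3 lists of related genes, 25 of 75 tested probes were called higher and 15 lower, against 21.9% and 23.7% of all tested probes. Under normexp 12 were called higher, and the share of all probes called under it is not given here.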

How the data were processed

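RNA of pLUM and pLB cells (3 sorts each) was measured on single-dye Agilent arrays. The files deposited by the authors came from Agilent Feature Extraction 10.10.1.1 and hold a linear intensity for every spot, corrected for background within each array and not normalized between arrays, with gene names and hg19 positions of the array design. Groups were taken from the labels. In R 4.3.3, each intensity was divided by the 75th percentile of its array (449 to 869) and expressed as log2. Spots were averaged by probe after removal of controls and of 296 to 387 outliers on each array. No spot of a member was saturated. A probe counted as well above background where the flag held for at least a share of 0.5 of its spots, and the 23099 of 34127 probes that passed on 3 or more of 6 arrays were tested with lmFit and eBayes of limma 3.58.1 (two-sided, no covariate). A probe was called at 2-fold or more where the p adjusted by Benjamini-Hochberg over all tested probes was under 0.05. The fit was tested on simulated data.

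Members and lists were chosen with earlier results of these data known, and probes are named when called, when well above background on all arrays, or when of AHR, AHRR, ARNT, TIPARP, POR, CYP1A1, CYP1A2, CYP1B1, CYP19A1 or CYP24A1. Of each related list, up to 8 called genes are named with values by size, and others without. Some list genes that were not called are named too. Of 115 transcript accessions listed for members, 110 matched the RefSeq table, which gave names only. Probe sequences were aligned with blastn 2.17.0 (at least 30 bases, expectation value up to 1e-05). Whether a probe lies in an exon or untranslated region was not analysed here, and a few sequences and genes are not reported here. Precision is limited by the number of arrays: with 3 in each line, the smallest two-sided p of an exact permutation test is 0.1. Alternatives were other background corrections, scalings, filters, tests and blocks, and leaving out each array.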

Additional observations from a re-analysis of the deposited data

How the results depend on the processing

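The shares of all tested probes called under the alternatives are not given here, so the counts below cannot be set against them. Of the 26 called member probes, 11 kept the call under each of the 20 alternatives that tested them, and 15 lost it under at least 1. Normexp ended 13 calls and slide as a block 2, CYP20A1 being in both, and CYP46A1 lost its call only with the methods' t-test or single arrays left out. Of the 17 probes not called, 8 were called under at least 1. Member probes called higher numbered 16, and 5 with normexp or 10 with a filter that asked for 6 of 6 arrays well above background. Those called lower numbered 10, and 4 under that filter, which by construction drops probes that were dim in one line. Of the probes of the related lists, 25 were called higher, and 12 with normexp, and 15 lower, and 9 under the stricter filter. CYP3A4 fell below 0 with normexp (-0.12), though above the median of all tested probes under it (-0.26). Apart from the filter, the cause was not tested. Leaving out single arrays gave 14 to 15 member probes called higher and 7 to 10 lower, and 22 to 26 list probes higher and 14 to 17 lower. Samples with the same number did not deviate together (r = -0.27, -0.09 and -0.22). With the replicate block 15 member probes were called higher and 10 lower, CYP1B1 losing its call. Spike-in scaling moved the median of all tested probes to 0.24 and normexp to -0.26, so that log2 fold changes under these settings are relative to those values. With spike-in scaling 19 member probes were called higher and 8 lower. The analysis of slide 1 arrays alone (15 higher, 12 lower), and all alternatives for the related lists, were added after the data were seen. With the dim signals raised to the lowest signal well above background, the median log2 fold change of tested members was 0.41. Depth cannot be stated for arrays, and for probes near background only bounds can be given.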

Other observations

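Several P450 pseudogenes and an antisense gene on the array were outside the rule for members. CYP4Z2P, a pseudogene related to CYP4Z1, read -0.14, -0.48 and -0.74 in pLUM and -6.86, -7.94 and -6.99 in pLB, where no array was well above background, and was at least 28.6-fold lower in pLB (adjusted p = 3.7e-06 in limma). CYP4F30P was higher in pLB on both probes. On A_24_P28811 it read -0.996, -1.31 and -1.85 in pLUM and 0.60, 0.51 and 1.18 in pLB, a log2 fold change of 2.15 ± 0.28, and on A_23_P39881 it was at least 4.51-fold higher. A tested CYP2G1P probe was not called (-1.26 ± 0.69), and CYP1B1-AS1 was well above background on no array. Whether the CYP4Z2P probe also takes up CYP4Z1 RNA was not tested.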
